A study of Mus musculus with 4 samples.

Results

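The Notch pathway is described here through 10 genes: the receptors Notch1, Notch2 and Notch3, the ligands Dll1, Dll3 and Jag1, the DNA-binding factor Rbpj, and the target genes Hes1, Hes5 and Hey1. They were chosen by name, with earlier results of these data known, and all 10 occur among the 20001 genes named in the site tables of the series. Notch receptors are cleaved after they bind a Delta or Jagged ligand on a neighbouring cell, and the freed intracellular domain joins RBPJ on DNA and switches on Hes and Hey genes. HES and HEY proteins repress proneural genes. In the embryonic retina this signalling is known to keep progenitors from differentiating too early, and HES1 protein and mRNA are both short-lived.

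GLORI was used to read N6-methyladenosine (m6A), the most common internal modification of mRNA, in polyA RNA of mouse organoids. Glyoxal and nitrite turn unmethylated A into a base read as G, whereas m6A is still read as A, so the level of a site is the number of A reads over all its A and G reads. The organoids were grown from Rx:GFP cells, in which GFP reports the retinal gene Rx. These cells carry the FKBP12F36V-HA tag at the C-terminus of endogenous Mettl3 and were differentiated with KSR and AGN in the medium. METTL3 carries the methyltransferase activity of the complex that writes most m6A in mRNA, and dTAG13 directs proteins with this degron to the proteasome. At day 6, 2 libraries received no dTAG13 (0 h, called untreated) and 2 received 125 nM dTAG13 for 8 h, with all cells collected together. The degron allele is shared by both groups, so neither is a wild-type control, and no sample of the parental line with dTAG13 was analysed here. The genotype text names Mettl3, Mettl4, Mettl5 and Mettl6 in turn from sample to sample, but METTL3 alone is named by the title and design of the series. The labels give all 4 samples the same batch and do not say whether replicates were separate cultures, so the p-values measure the spread between these samples, which may be technical.

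The tables list called sites only, and in every library the lowest total was 15 reads, the lowest number of A reads was 5 and the lowest level was 10%. Whether the tables were filtered further is not given in the sources used here. Over all genes 91.4% of positions occur in the table of 1 library, so a listed site here is an entry of a table and not an m6A site established in replicates. A position missing from a table can therefore be unmethylated, under these limits or uncovered. The libraries listed 260741 and 272174 sites in genes without dTAG13 and 178739 and 201935 with it, at a median of 87 to 112 reads per site. Gene coverage, a deposited value per gene and library, had a median of 82.4 to 110.9 over the genes listed in all 4 libraries. All 7 retinal progenitor genes of a marker list and all 5 pluripotency genes had listed sites in every library, and their summed gene coverage overlapped between the groups (1950 to 3107 and 415 to 516). Of the neuronal markers 2 of 5 were listed in every library, of the pigment epithelium markers 3 of 5, of the mesoderm and endoderm markers 1 of 5 and of the neural crest markers 0 of 3. Rpe65, Tbxt and Mesp1 were listed in no library. A gene is listed only if it has a called site, so an unlisted marker may still be transcribed. The organoids thus carried transcripts of progenitor and pluripotency genes and of some markers of other lineages. Among the latter, Tubb3 and Map2 (neuron), Mitf, Tyrp1 and Pmel (pigment epithelium) and Sox17 (mesoderm and endoderm list) were listed in every library. The part of this mixture in the results below was not tested.

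The number of m6A sites listed in the 10 genes was close to the same with and without dTAG13. The untreated libraries listed 213 and 229 sites and the dTAG13 libraries 218 and 198. The means were 221 ± 11.3 and 208 ± 14.1 (SD, n = 2 each), a ratio of 0.941, and the groups overlapped. An exact permutation test, two-sided, returned p = 0.667, where 2 against 2 libraries allow no value under 0.333. Over all genes the same ratio was 0.714, with both dTAG13 libraries below both untreated libraries and an exact permutation p of 0.333. Divided by the summed coverage of the 10 genes, the ratio turned to 1.08, from 1.41 in the first dTAG13 library and 0.752 in the second, each over the untreated mean.

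Summed by role, receptors and Rbpj had fewer listed sites in both dTAG13 libraries, and the targets had more, beside a ratio of 0.714 over all genes. Single genes did not all follow their role. The receptors Notch1 and Notch3 overlapped between the groups, as did the target Hes5, at a ratio of 0.889. How often such sums separate the groups over all genes was not counted. The differences between these roles were not tested. The 3 receptors had 103 and 92 listed sites without and 77 and 80 with dTAG13, a ratio of 0.805, and the groups did not overlap. Rbpj had 53 and 63 against 52 and 47 (ratio 0.853). The 3 ligands had 32 and 27 against 35 and 23 (ratio 0.983). The 3 targets had 25 and 47 against 54 and 48, a ratio of 1.42, where the lower dTAG13 library lay 1 site above the higher untreated one. Both dTAG13 libraries lay below both untreated ones in 2 of the 10 genes, Notch2 and Rbpj, and above them in another 2, Hes1 and Hey1. Among all genes with at least 10 listed sites these patterns occurred in 46.4% and 4.51%.

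**Figure D1:**
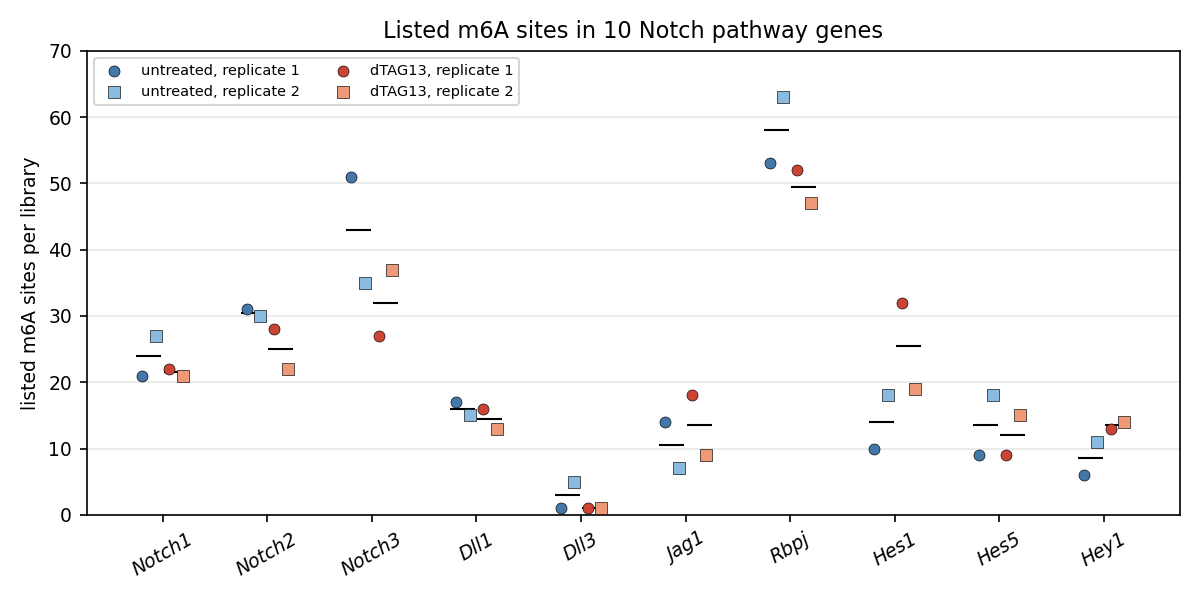
Number of listed m6A sites (vertical axis) in each of the 10 genes, with a point for each library and a bar for the group mean. Hes1 and Hey1 have more listed sites in both dTAG13 libraries, Notch2 and Rbpj have fewer, and the groups overlap in the other 6 genes.

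Listed sites per gene were then tested relative to the total of each library with edgeR's quasi-likelihood test over 12449 genes. Dll3, with 8 listed sites in all, was below the minimum of 10. The other 9 genes had log2 changes above 0, from 0.055 (Notch3) to 1.35 (Hes1), with a median of 0.33 against -0.030 over all genes tested. None of the 9 passed an adjusted p of 0.05, as 0.466% of all genes did. Hes1 (adjusted p = 0.0650) and Hey1 (adjusted p = 0.359) had an unadjusted p under 0.05, both toward more sites, which 5.76% of all genes had. Over its alternatives the adjusted p of Hes1 ran from 0.0295 to 1.00. DESeq2 also called 0 of the 9 and gave 1 an unadjusted p under 0.05. Without the second dTAG13 library Hes1 passed, at a log2 change of 1.76 and an adjusted p of 0.0295. With library sizes set equal, so that a fall shared by all genes is not divided out, 3 of the 9 changes were above 0 (Jag1, Hes1 and Hey1) and 6 were below, and 0 had an unadjusted p under 0.05.

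High-level sites in these genes were thinly covered. Sites at 90% or more numbered 41 and 48 without and 51 and 48 with dTAG13, a ratio of 1.11 against 0.849 over all genes. The median reads at these member sites were 27.0 to 41.0 per library, against 94.0 to 157 at member sites under 90%. All genes showed the same gap, with 31 to 36 reads against 107 to 141. At 20 to 50% the 10 genes listed 70 and 80 sites without and 71 and 51 with dTAG13, and at 10 to 20% they listed 76 and 69 against 66 and 82. The groups overlapped in each of these ranges. The median level of all member sites was 29.1% and 31.8% without and 33.8% and 24.8% with dTAG13.

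Few sites recurred between libraries. The members had 789 positions, and 729 of these (92.4%) occurred in the table of 1 library. Another 52 occurred in 2 tables, 7 in 3 and 1 in every table. The untreated pair shared 18 member sites, the dTAG13 pair 9 and the mixed pairs 10 to 16. Of the 18 untreated-pair sites 6 were also listed with dTAG13, a share of 33.3% (Wilson 95% interval 16.3 to 56.3%), against 20.0% (19.5 to 20.5%) of 25086 such sites over all genes. In the opposite direction 3 of 9 dTAG13-pair sites were listed in an untreated library (33.3%, 12.1 to 64.6%), against 31.2% over all genes. The intervals of the 10 genes held the values of all genes, so they showed no difference at this number of sites. These intervals take sites as independent, although the sites share genes and libraries, so they do not measure the spread between libraries. Intervals on levels cover counting error alone, and reads may include PCR copies.

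The replicate error at a shared site was large. Between the untreated libraries the level of the 18 sites differed by a median of 10.95 points and by up to 82.3 points, and at 7 of them (38.9%) the Wilson 95% intervals of the replicates did not overlap. At the 9 dTAG13-pair sites the median difference was 8.56 points, and the intervals were apart at 4. All genes had 43.0% and 38.6% of such sites apart. At these sites the spread between replicates was wider than counting error.

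A further 34 member positions were listed in 1 library of each group. The level was higher in the dTAG13 library at 22 and lower at 12, with a median difference of 3.68 points. Over all genes 57.4% of 37019 such positions were higher, with a median difference of 2.13 points. The Wilson intervals of the 34 were apart at 11 that were higher and 2 that were lower with dTAG13, where all genes had 27.3% and 15.7%. Rbpj held 14 of the positions (10 higher) and Notch3 held 8 (6 higher). The 3 Notch2 positions were lower, but with overlapping intervals at each. Their levels, untreated first, were 24.1% and 23.2% at 98031134, 40.2% and 33.3% at 98057379, and 100% and 94.4% at 98055594. A site below the limit of 10% with dTAG13 cannot enter this set, and the direction was not tested.

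**Figure D2:**
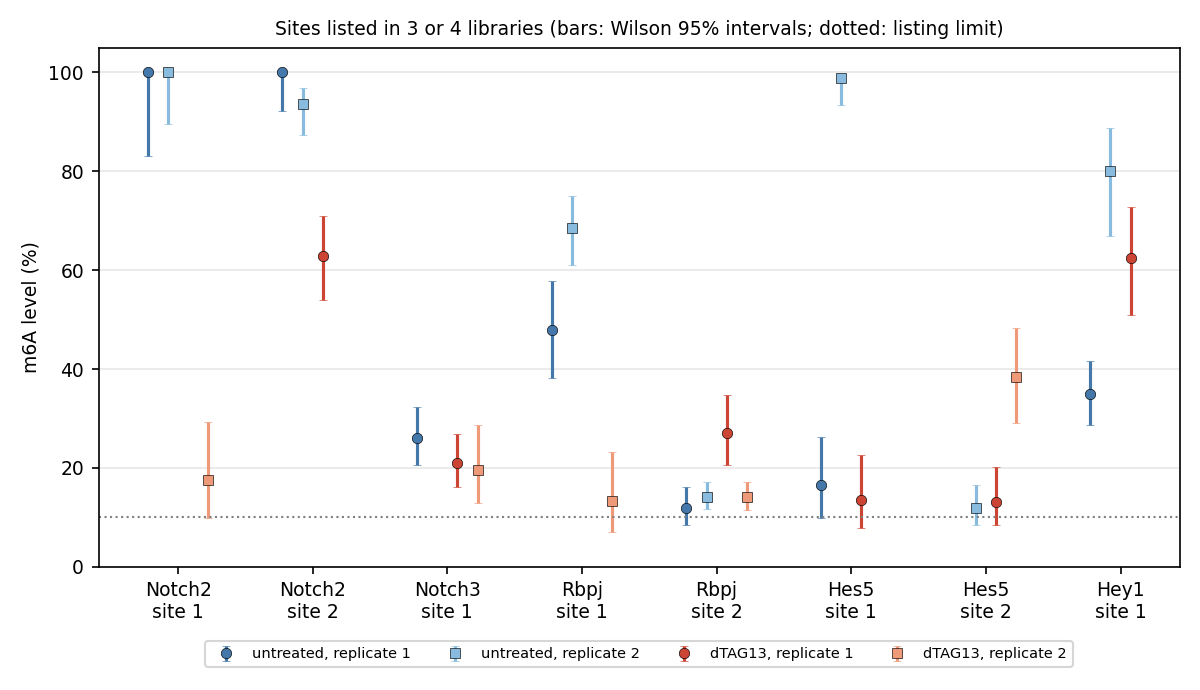
Level (% of A among A and G reads, vertical axis) of the 8 member sites listed in 3 or 4 libraries, with Wilson 95% intervals, sites of a gene numbered by position. Both Notch2 sites and the first Rbpj site are lower in the dTAG13 library that lists them than in both untreated libraries, whereas the untreated replicates stand far apart at the first Hes5 site and at the Hey1 site.

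Notch2, a receptor that acts beside Notch1 in many tissues, held sites near 100% in both untreated libraries. It was listed at 101 positions over 102.4 kb of chromosome 3 (plus strand), with 31 and 30 sites without and 28 and 22 with dTAG13. At position 98053780 the level was 100% in both untreated libraries (19 and 33 reads) and 17.5% in the second dTAG13 library (57 reads), with no listing in the first. At position 98055467 it was 100% and 93.6% without dTAG13 (45 and 109 reads) and 62.8% in the first dTAG13 library (121 reads). The Wilson interval of the dTAG13 library lay below both untreated intervals at each site, 9.82 to 29.4% in the first case and 53.9 to 70.9% in the second. How many sites over all genes have this pattern was not counted, and a level of 100% cannot rise. Replicates of a group had separate intervals at 43.0% (untreated pair) and 38.6% (dTAG13 pair) of their shared sites over all genes. Neither Notch2 site could enter the test across libraries, which needs a listing in all 4.

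The other 3 untreated-pair sites of Notch2 were listed in neither dTAG13 library. Their levels were 35.2% and 50.7% at position 98055486, 32.4% and 28.8% at 98056389, and 16.5% and 89.6% at 98057499. The last of these shows how far replicates can part, at 121 and 48 reads. Position 98057499 is also the listed site nearest the 3′ end. Within 2 kb of it, Notch2 had 16 and 15 sites without and 8 and 6 with dTAG13, a ratio of 0.452, and farther upstream it had 15 and 15 against 20 and 16, a ratio of 1.20. All genes had ratios of 0.729 and 0.700 in these zones. The window was set after the tables had been seen and the difference between zones was not tested. Gene coverage of Notch2 was 63.7 and 70.8 without and 71.0 and 94.6 with dTAG13, 1 value for the whole gene. Reads over the last 2 kb alone were not compared.

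Rbpj encodes the factor through which every Notch receptor reaches DNA, and it gave the most sites. It was listed at 193 positions over 65.9 kb of chromosome 5 (plus strand), and 41.9% of its 215 listings lay within 2 kb of the site nearest the 3′ end. Position 53813988 was the 1 member site listed in every library. Its level was 11.8% and 14.2% without dTAG13 (280 and 592 reads) and 27.0% and 14.1% with it (148 and 580 reads). The first dTAG13 library stood above the other 3, which lay between 11.8% and 14.2%. The mean was 12.99% ± 1.70 without and 20.6% ± 9.11 with dTAG13 (SD, n = 2 each), a difference of 7.59 points that was smaller than the SD of the dTAG13 libraries. A quasi-binomial fit whose dispersion was moderated by limma gave an adjusted p of 0.90 over 2321 sites, of which 2.28% passed and 2.2% passed with a lower level.

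Other Rbpj sites differed in either direction. At position 53810738 the level was 47.9% and 68.5% without dTAG13 (96 and 165 reads) and 13.2% in the second dTAG13 library (68 reads), with no listing in the first. The dTAG13 interval, 7.12 to 23.3%, lay below both untreated intervals, although these 2 were themselves apart. The share of sites over all genes with this pattern was not counted. Of the 14 Rbpj positions listed in 1 library of each group, 5 were higher with dTAG13 with separate intervals and 1 was lower. Over all genes the shares were 27.3% and 15.7%. Position 53803363 was at 32.2% without and 90.9% with dTAG13 (59 and 33 reads), position 53812814 at 12.8% and 41.8%, position 53812821 at 14.6% and 35.8%, position 53813053 at 14.7% and 30.2%, and position 53814462 at 19.7% and 29.8%. The lower 1, position 53811932, was at 31.7% and 16.1%. The remaining untreated-pair sites were low and agreed between replicates, at 20.5% and 16.5% (position 53811514) and at 15.9% and 14.3% (position 53813973). The dTAG13 libraries shared 1 more site, position 53784750, at 27.1% and 18.4%. Rbpj had 6 and 15 sites at 50% or more without and 15 and 11 with dTAG13, which overlapped.

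**Figure D3:**
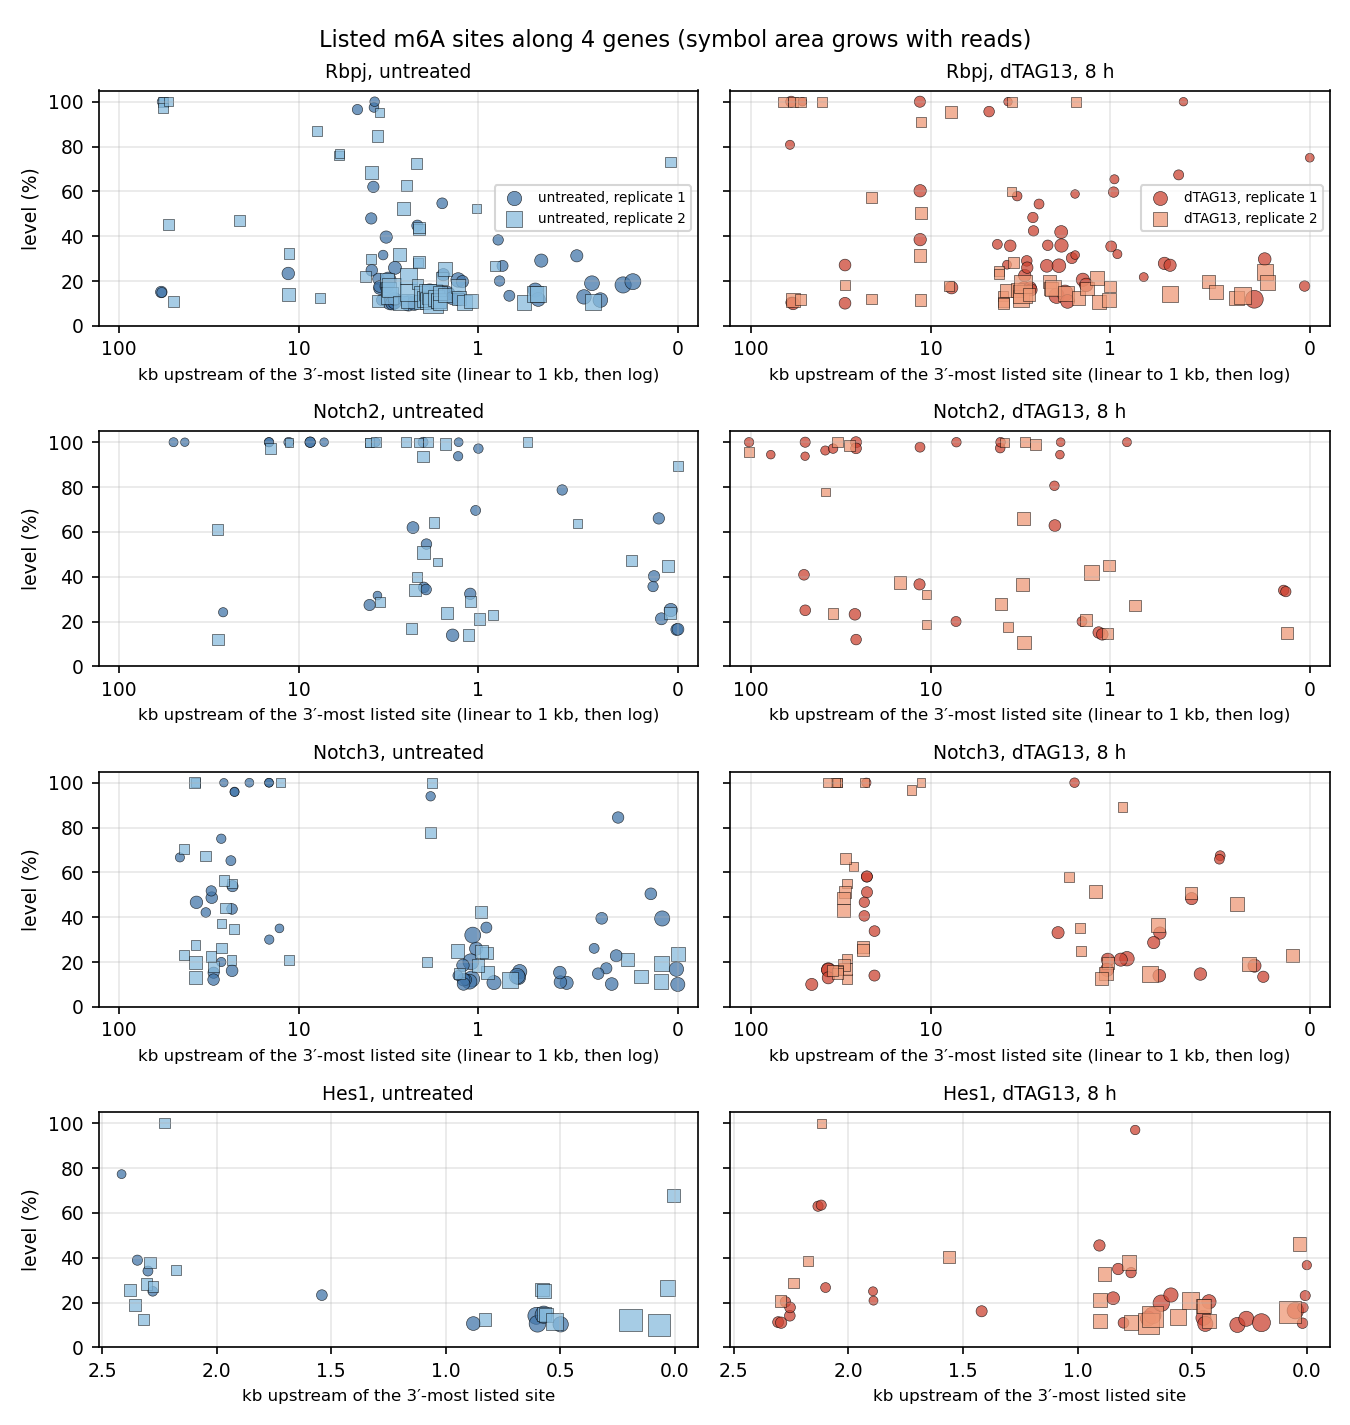
Level (%, vertical axis) of every listed site of Rbpj, Notch2, Notch3 and Hes1 against its distance in kb upstream of the 3′-most listed site, untreated libraries on the left and dTAG13 libraries on the right; symbols grow with read number. The horizontal axis of the longer genes is linear to 1 kb and then logarithmic. Deeply read sites mostly lie under 50%, the sites near 100% are small symbols, and Notch2 has fewer sites in the last 2 kb with dTAG13.

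Notch1, the receptor needed to maintain retinal progenitors, was listed at 87 positions over 27.3 kb of chromosome 2 (minus strand). It had 21 and 27 sites without and 22 and 21 with dTAG13, and its groups overlapped. Its 1 untreated-pair site, position 26350356, was at 17.3% and 15.1% (75 and 86 reads) and was listed in neither dTAG13 library. Another 3 positions were each listed in 1 library of either group. These were 26348776 at 48.4% and 58.3%, 26349415 at 23.2% and 18.5%, and 26350558 at 29.8% and 35.9%, untreated level first. The median level of its listed sites was 44.4% and 48.4% without and 54.2% and 100% with dTAG13. Over all genes it was 28.2% and 27.0% without and 29.3% in both libraries with dTAG13. Of the 21 sites of the second dTAG13 library 11 were at 90% or more, as were 9 of 22 in the first and 6 and 11 without dTAG13. Those 11 sites of the second dTAG13 library had 15 to 115 reads and were listed in that library alone.

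Notch3 was listed at 139 positions over 45.9 kb of chromosome 17 (minus strand). It had 51 and 35 sites without and 27 and 37 with dTAG13. Position 32340877 was its most widely listed site, at 25.9% in the first untreated library (212 reads) and at 21.0% and 19.6% in the dTAG13 libraries (224 and 97 reads). These 3 intervals overlapped. The untreated-pair site at position 32340807 was at 35.4% and 24.1% (82 and 166 reads). Of the 8 Notch3 positions listed in 1 library of each group, 5 were higher with dTAG13 with separate intervals and 1 was lower. Over all genes the shares were 27.3% and 15.7%. The level, untreated first, was 15.3% and 48.3% at position 32340439, 10.2% and 51.6% at 32341057, and 11.1% and 22.9% at 32339932. It was 15.2% and 51.1% at position 32369633 and 12.2% and 66.1% at 32369656. In the opposite direction, position 32372900 was at 67.3% and 15%. The intervals overlapped at position 32340968 (11.2% and 12.8%) and at position 32363227 (53.8% and 40.6%). Replicates of a group were themselves apart at 38.9% (untreated pair) and 44.4% (dTAG13 pair) of the shared sites of the 10 genes. Within 2 kb of the 3′-most site Notch3 had 30 and 16 sites without and 15 and 14 with dTAG13, a ratio of 0.630. Farther upstream it had 21 and 19 against 12 and 23, a ratio of 0.875. All genes had ratios of 0.729 and 0.700 in these zones, and the difference was not tested.

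Dll1, a ligand that neighbouring progenitors present to each other, was listed at 57 positions on chromosome 17 (minus strand), with 17 and 15 sites without and 16 and 13 with dTAG13. Its 2 untreated-pair sites disagreed between replicates. Position 15588025 was at 25.1% (239 reads) and 100% (34 reads), and position 15596156 was at 45.9% (37 reads) and 12.4% (145 reads). The dTAG13 libraries shared 2 low sites 2 bases apart. Position 15587992 was at 10.4% and 11.97%, and position 15587994 was at 16.5% and 20.6%, with 141 to 201 reads.

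Jag1, a ligand of the Jagged class, was listed at 47 positions on chromosome 2 (minus strand), with 14 and 7 sites without and 18 and 9 with dTAG13. It had no site in both libraries of a group. Its 1 recurring site, position 136923682, was at 24.6% in the first untreated library (65 reads) and 17.8% in the second dTAG13 library (292 reads). Dll3, a divergent ligand that acts inside the cell on Notch signalling, had 1 and 5 sites without and 1 and 1 with dTAG13 and no recurring position. Dll3 thus had too few listings for a description of its methylation.

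Hes1, the repressor best known as a direct Notch target, had the highest coverage of the 10 genes. Among the 9 genes tested for listed sites it had the largest change relative to the library total. It was listed at 75 positions over 2.42 kb of chromosome 16 (plus strand), with 10 and 18 sites without and 32 and 19 with dTAG13. Within 2 kb of its 3′-most site the numbers were 6 and 10 against 24 and 15, and farther upstream 4 and 8 against 8 and 4. All genes had ratios of 0.729 and 0.700 in these zones. The window covers most of the 2.42 kb and was set after the tables had been seen. The size of the difference depended on single libraries. Without the first dTAG13 library the log2 change relative to the library total went from 1.35 to 0.84, and without the first untreated library to 1.02. It was 1.76 without the second dTAG13 library and 1.80 without the second untreated library. The first dTAG13 library also had the lowest Hes1 coverage, 385 against 765 to 812 in the other 3.

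Shared Hes1 sites were between 11.2% and 33.3%. Position 29886033 was at 14.6% and 25.2% in the untreated libraries (762 and 250 reads) and in neither dTAG13 table. The dTAG13 libraries shared 3 sites that no untreated library listed. Position 29885933 was at 14.2% and 13.6% (654 and 1802 reads), position 29885839 at 33.3% and 11.2%, and position 29886179 at 20.3% and 11.8%. The replicates agreed at the first of these and had separate intervals at the other 2. Several of these levels lie near the listing limit of 10%.

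Hes5, a repressor that acts beside Hes1 in neural progenitors, was listed at 40 positions over 1.36 kb of chromosome 4 (plus strand), with 9 and 18 sites without and 9 and 15 with dTAG13. It had 9 recurring positions, the most for its length. Position 155046476 was at 16.5% and 98.8% without dTAG13 (79 and 82 reads) and at 13.6% in the first dTAG13 library (81 reads). The dTAG13 value thus lay beside the first untreated library and far from the second. Position 155046758 was at 11.8% in the second untreated library (245 reads) and at 13.2% and 38.3% with dTAG13 (129 and 94 reads), where the second dTAG13 library stood alone. The untreated pair also shared position 155046394, at 73.9% and 58.2% (23 and 165 reads), and position 155046765, at 12.05% and 18.1% (166 and 237 reads). Neither was listed with dTAG13. Another 5 Hes5 positions were listed in 1 library of each group, 4 higher and 1 lower with dTAG13. The intervals were apart at 1 of them, position 155046329, at 12.4% without and 32.5% with dTAG13 (113 and 160 reads). Over all genes 27.3% of such positions were higher with separate intervals and 15.7% lower.

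Hey1, a related repressor of the Hey family, was listed at 42 positions on chromosome 3 (minus strand), with 6 and 11 sites without and 13 and 14 with dTAG13. Its groups did not overlap, and the edgeR log2 change relative to the library total was 1.14 (adjusted p = 0.359). Its 1 recurring position, 8729709, was at 35.0% and 80.0% without dTAG13 (206 and 50 reads) and at 62.5% in the first dTAG13 library (72 reads). The dTAG13 value lay between the untreated replicates. Most Hey1 sites at either time were listed once.

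Most member sites occurred in a single library, and many of the highest had no counterpart. With at least 50 reads, Dll1 had a site at 100% in the first untreated library (position 15595749, 156 reads) and another at 100% in the second dTAG13 library (position 15588049, 185 reads). Hey1 had a site at 100% in the second dTAG13 library (position 8731986, 145 reads) and at 94.8% in the first untreated library (position 8729742, 77 reads). Notch1 reached 100% at position 26350567 without dTAG13 (120 reads) and at position 26349712 with it (115 reads). Notch2 did so at 98048859 without (63 reads) and at 98031500 with dTAG13 (83 reads). The highest single-library Rbpj sites were at 96.5% without (position 53809976, 57 reads) and 100% with dTAG13 (position 53803223, 90 reads). In Notch3 they were at 100% (position 32377933, 102 reads) and 58.1% (position 32362470, 86 reads). Hes1 had 100% at 29884379 without and 63.5% at 29884487 with dTAG13, and Hes5 had 44.2% at 155045897 and 58.5% at 155046381. For Jag1 these values were 97.1% (position 136930360) and 65.3% (position 136924097), and for Dll3 26.4% (position 27993330) and 17.4% (position 28000922). These positions were picked for occurring in a single library. Among shared sites, Notch2 position 98053780 was at 100% in both untreated libraries.

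Transcript level was compared through gene coverage, in which fewer cells with a transcript and less of it per cell cannot be told apart. Hes1 had 774 and 765 without and 385 and 812 with dTAG13, and Rbpj 204 and 213 against 135 and 206. Dll3 had 37.8 and 43.2 against 55.6 and 151.8, and Hey1 82.6 and 74.1 against 110.5 and 143.5, with both dTAG13 libraries above both untreated ones. Notch2 was also higher in both, whereas Notch1 was lower in both, at 97.4 and 80.9 against 76.5 and 71.1. Of all genes 10.1% were higher and 28.1% lower in both dTAG13 libraries. Divided by the median gene of each library, Notch2, Dll3 and Hey1 were still higher in both (17% of all genes), and Rbpj and Hes1 were lower in both (29.2% of all genes). The remaining 5 genes overlapped, among them Hes5 (79.8 and 109.8 against 79.4 and 154.3) and Notch3 (115.9 and 119.95 against 102.0 and 118.7).

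With limma on log2 coverage centred on each library's median, none of the 10 genes passed, and 0 of 12520 genes did. The log2 change was 1.27 ± 0.36 (SE, n = 2 per group, limma adjusted p = 0.363) for Dll3 and 0.77 ± 0.21 (limma adjusted p = 0.363) for Hey1, the 2 members with an unadjusted p under 0.05. Of all genes 12.7% reached an unadjusted p under 0.05 in either direction. Changes of the other 8 ran from -0.38 (Hes1, SE 0.27) to 0.37 (Notch2, SE 0.20). Of the 10 changes 5 were above 0 and 5 below.

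**Figure D4:**
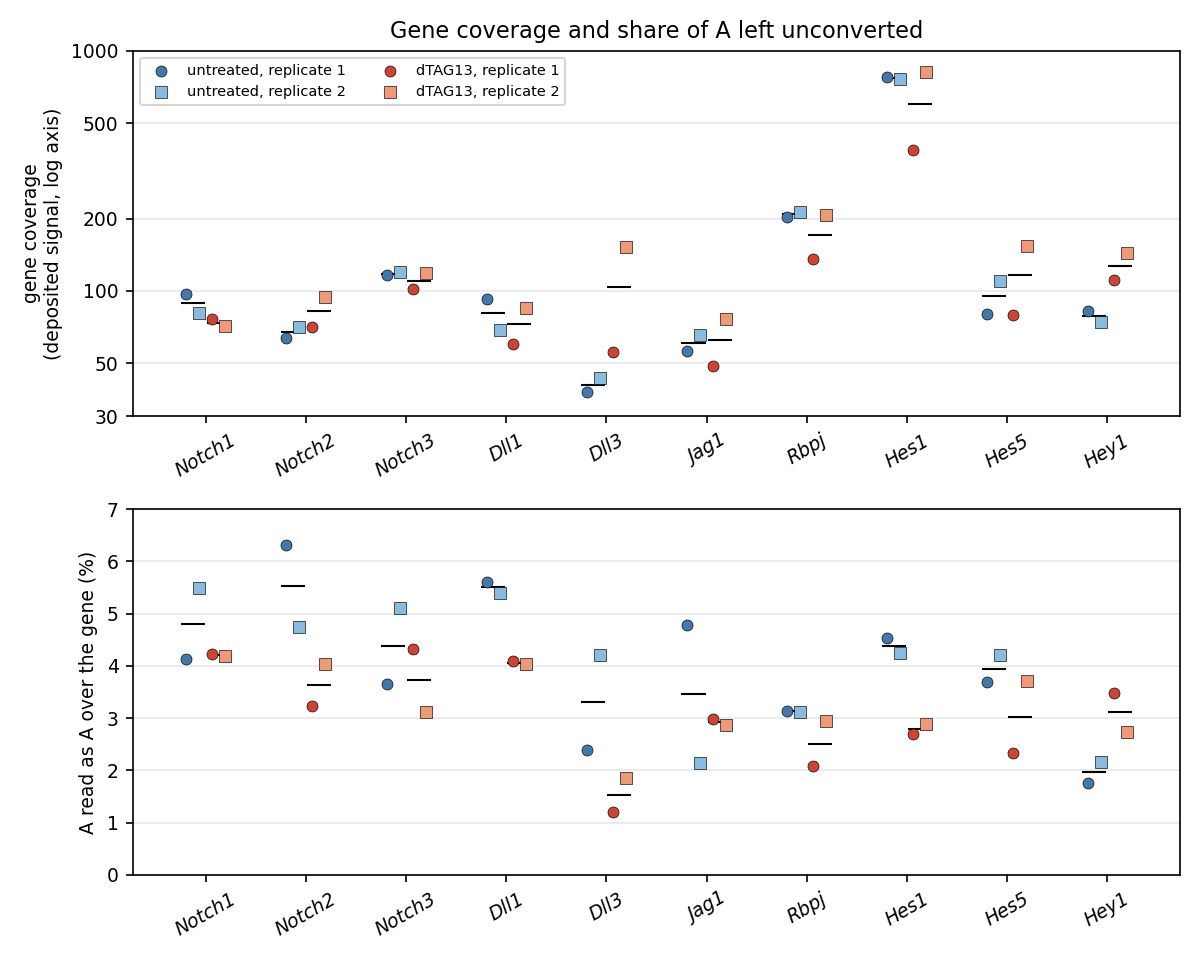
Deposited gene coverage (upper panel, log axis) and the share of A still read as A over the gene, 100% minus the conversion rate (lower panel, %), per gene and library, with bars for group means. Hes1 leads in coverage, and its unconverted share is lower in both dTAG13 libraries, as are those of Notch2, Dll1, Dll3 and Rbpj, while Hey1 is higher in both.

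The conversion rate of a gene, the share of all its A read as G, covers listed and unlisted positions alike. It was higher in both dTAG13 libraries in 5 of the 10 genes, Notch2, Dll1, Dll3, Rbpj and Hes1, and lower in both in Hey1. Of all genes 40.9% were higher and 6.05% lower in both, and a count of 5 in 10 was near that background. For Hes1 the unconverted share was 4.53% and 4.24% without and 2.70% and 2.89% with dTAG13. For Dll1 it was 5.61% and 5.40% against 4.09% and 4.04%. For Notch2 it was 6.31% and 4.75% against 3.23% and 4.04%. Hey1 ran the other way, from 1.76% and 2.17% to 3.47% and 2.74%.

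In limma on the log2 odds of conversion, 9 of the 10 changes were above 0, as were 76.7% of 12520 genes. The median was 0.39 for the 10 genes and 0.30 for all genes. None of the 10 passed, and 0 of all genes did. The largest rise in log2 odds was 1.12 ± 0.42 for Dll3 (SE, n = 2 per group, limma adjusted p = 0.398), the 1 member with an unadjusted p under 0.05, which 11.2% of all genes had in that direction and 1.06% in the other. Hes1 stood at 0.67 ± 0.27 (limma adjusted p = 0.408) and Hey1 at -0.68 ± 0.30 (limma adjusted p = 0.433). Relative to the median gene of each library, Notch1, Notch3 and Jag1 fell below 0, at -0.14, -0.082 and -0.19. In that fit Dll3 had an unadjusted p of 0.137 and Hey1, at -0.998, an unadjusted p of 0.0253 (limma, adjusted p = 0.716 and 0.648). This rate does not separate methylation from the efficiency of the chemistry.

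The wider pathway was read through a list of 55 genes: other ligands and receptors, the Fringe and fucosylation enzymes that modify Notch, the ADAM and γ-secretase proteases that cleave it, endocytic and ubiquitin regulators, co-factors of RBPJ and further Hes and Hey genes. Of these 53 were listed in some library, all but Hes3 and Heyl, and 44 in every library. Their listed sites added up to 1153 and 1178 without and 826 and 858 with dTAG13, a ratio of 0.722 beside 0.714 over all genes. Among the 42 with at least 10 sites, both dTAG13 libraries were below both untreated ones in 25 (59.5%) and above in 1, beside 46.4% and 4.51% of all genes.

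None of the 42 passed in the edgeR test of listed sites, where 1 had an unadjusted p under 0.05 toward fewer sites, as 5.76% of all genes had. Pofut1, which adds O-fucose to Notch, had 39 and 23 sites without and 8 and 12 with dTAG13 (log2 change -1.14, edgeR adjusted p = 0.168). Next came Dtx1, a ubiquitin ligase of the pathway, at -1.05. Psenen, a γ-secretase subunit, and the receptor Notch4 were at the other end, at 1.05 and 0.66. In coverage 0 of 44 passed in limma, 2 had an unadjusted p under 0.05 (12.7% of all genes), and the log2 changes ran from -0.54 (Jag2) and -0.50 (Ncstn) to 0.65 (Numbl, a Notch inhibitor) and 0.70 (Psen2). In conversion 0 of 44 passed and 5 had an unadjusted p under 0.05, all above 0, a share near the 11.2% of all genes. Crebbp (1.87) and Poglut1 (1.45) were highest, and Psenen (-0.33) and Maml3 (-0.17) lowest.

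Of the sites of this list, 5 occurred in every library and were tested. At position 171894108 in Ncstn, which encodes the γ-secretase subunit nicastrin, the mean level was 74.9% without and 25.2% with dTAG13 (quasi-binomial model with limma-moderated dispersion, adjusted p = 0.102). The other 4 lay between 10.99% and 20.4% in either group's mean, in Dtx3 (2 sites), Nrarp and Lfng. Their adjusted p-values from the same model ran from 0.820 to 0.985. Thus 0 of the 5 passed, and the Ncstn site alone had an unadjusted p under 0.05.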

How the data were processed

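The members and gene lists were chosen with earlier results of these data known. The authors deposited 1 site table per library, with counts of A plus G reads and of A reads, the fraction of A (level), the conversion rate of the gene as a fraction, a coverage signal per gene, and a p-value per site, all unnormalised and with replicates not pooled, per the file headers. Second-mate reads were trimmed of adapters and molecular identifiers, as the deposited tables' names state; the aligner and caller are not given in the sources used here. The submitters' processing notes name build mm10, yet 93 of 789 member positions lay inside the GRCm38 interval of their gene, all in Notch2, and contigs are named as in GRCm39. Positions are therefore given as listed, and exon, UTR and sequence context were not assigned.

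A site entered the level test if every library gave it 20 or more reads; the test was a quasi-binomial model (dispersion moderated with limma 3.58.1). Coverage and conversion were tested with limma on log2 values, and listed sites per gene with edgeR 4.0.16 (DESeq2 1.42.0 as an alternative), in R 4.3.3. Tests ran over all genes or sites with Benjamini-Hochberg adjustment, a threshold of 0.05 and checks on simulated data. Named sites are those in 3 or 4 libraries or in both libraries of a group. The highest single-library site with at least 50 reads per gene and group is also named. Positions listed in 1 library of each group were added after their values were seen. All of these are given except in Rbpj and Hes5, where only those with separate intervals are. Of the 55 further genes, the 2 largest changes in each direction are named.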

Additional observations from a re-analysis of the deposited data

How the results depend on the processing

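The ratio of listed sites in the 10 genes (0.941) ran from 0.896 to 0.986 with a library left out, stayed under 1 with stricter sites, and turned to 1.08 per summed coverage (1.41 in the first dTAG13 library, 0.752 in the second). The share of untreated-pair sites still listed (33.3%) was 66.7% at levels of 50% or more, where 3 sites remain. Over all genes it was 17.8% of 4411 sites at these levels. The member share was 44.4% at levels of 20% or more. It was 16.7% without the first dTAG13 library and 22.2% without the second, where a site has 1 library left to be listed in. The count of changed sites over all genes (53) was 0 with the replicate block, 0 without either dTAG13 library and 21 and 25 without an untreated library, where the lone library is assumed to vary like the others. Genes changed in coverage were 0, and 15 without centring, when the median gene moved by -0.15 on the log2 scale. Genes changed in listed sites (58) were 0 with equal library sizes, 0 with DESeq2 and 4 to 44 with a library left out. Replicate numbers did not pair the samples (r = 0.0023 for coverage and 0.0083 for conversion over 12520 genes), and the block changed no call of a member. The causes were not tested.

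Of 259 alternative values for single members, 22 turned sign and 1 passed newly (Hes1, above); none of these 22 was called. With equal library sizes the log2 changes in listed sites were -0.16 (Notch1), -0.29 (Notch2), -0.42 (Notch3), -0.14 (Dll1), -0.23 (Rbpj) and -0.17 (Hes5). Centred conversion gave -0.14 (Notch1), -0.082 (Notch3) and -0.19 (Jag1). With a library left out, coverage changes ran from -0.45 to 0.082 (Notch1), -0.12 to 0.087 (Notch3), -0.32 to 0.16 (Dll1) and -0.022 to 0.20 (Jag1). Conversion ran from -0.031 to 0.40 (Notch1), -0.013 to 0.49 (Notch3) and -0.46 to 0.73 (Jag1), and listed sites from -0.071 to 0.45 (Notch2), -0.22 to 0.38 (Notch3) and -0.073 to 0.85 (Hes5). Sites unlisted with dTAG13 have no measured level, which limits every site-level statement.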

Other observations

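Neighbouring sites can be read from the same molecules. In the 10 genes 21.2% to 28.4% of the sites of a library lay within 10 bases of another listed site of that library, against 28.9% to 32.1% over all genes. Of the listings of the targets Hes1, Hes5 and Hey1, 69.6%, 100% and 86.4% fell within 2 kb of the 3′-most site. All listings of these genes span only 2.42, 1.36 and 3.55 kb. The share of Hes5 was thus fixed at 100%, and such shares depend on the length of the gene. Over all genes the first untreated library had 130574 sites within 2 kb and 130167 farther away. For the ligands Dll1, Dll3 and Jag1 the shares were 49.2%, 87.5% and 54.2%, where Dll3 had 8 listings.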
